A study of Mus musculus with 5 samples.

Results

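The cells compared were T cells from a pair of 10x libraries, called G1 and H2 here after the deposited matrix (G or H) and the barcode suffix (1 or 2). A barcode was kept when it had at least 500 UMIs (unique molecular identifiers, each standing for 1 captured transcript), at least 300 genes, at most 10% mitochondrial UMIs and at least 2 of the T cell genes Cd3d, Cd3e, Cd3g, Lck and Lat. This rule kept 5138 of 5943 barcodes in G1 (86.5%) and 3878 of 4365 in H2 (88.8%), so 9016 of the 25623 barcodes of the series. Trac, the constant region of the T cell receptor alpha chain, had a UMI in 99.9% of the kept G1 cells. All 5 marker genes were detected in 56.5% of them. At the edge of the rule, 226 G1 cells held exactly 2 of the markers (median 3892 UMIs per cell), and 254 further barcodes that passed the other filters held 1 (median 1191.5).

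In the study, splenic CD4 T cells of a naive OT-II mouse were taken by negative selection. OT-II is a transgenic line whose T cell receptor recognises an ovalbumin (OVA) peptide on MHC class II. The T cells were sequenced alone, or after a night with antigen-presenting cancer-associated fibroblasts (apCAFs) that had been sorted from mouse pancreatic tumours of the clones sKPC or rKPC, with DMSO or with the OVA peptide, in 5 samples with 1 per condition. The labels place OT-II alone and sKPC with DMSO in the G matrix, and sKPC with OVA, rKPC with DMSO and rKPC with OVA in the H matrix. The barcodes of G carry 3 suffixes and those of H carry 2, and no source used here ties a suffix to a sample. If the names of the matrices had been exchanged against the labels, G1 would be T cells with sKPC apCAFs and OVA, and H2 T cells with sKPC apCAFs and DMSO. This mapping is inferred, so the libraries are named by matrix and suffix throughout, and the direction of every comparison is that of G1 against H2. The matrices were aggregated separately, there was 1 library a side, and no p-value was computed: a difference is given by its size, and intervals cover counting error only.

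A T cell that binds its cognate peptide through the T cell receptor (TCR) signals within minutes through calcium, NFAT, ERK and NF-kB. The immediate products are transcription factors of the NR4A and EGR families and IRF4, followed by the interleukin 2 receptor, nutrient transporters and the ribosome biogenesis machinery. Interferon gamma acts on any cell with its receptor, through JAK kinases, and induces IRF1 and families of GTPases (guanylate binding proteins and immunity-related GTPases) that attack intracellular pathogens. IRFs bind the interferon-stimulated response element (ISRE), and the GAS element is the other sequence of this pathway.

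The upstream sequences of 4 GTPase genes that were higher in G1, and of Rel, a subunit of NF-kB that was also higher, are shown because the results turn on these responses. Each is the 250 bases before the RefSeq start site (GRCm38.p6), read 5′ to 3′ on the gene's strand. Capitals mark the ISRE (a pair of GAAA runs with any 2 bases between, on either strand) in the first 4 and the NF-kB site in Rel.
Gbp2, chr3:142620413-142620662, plus strand: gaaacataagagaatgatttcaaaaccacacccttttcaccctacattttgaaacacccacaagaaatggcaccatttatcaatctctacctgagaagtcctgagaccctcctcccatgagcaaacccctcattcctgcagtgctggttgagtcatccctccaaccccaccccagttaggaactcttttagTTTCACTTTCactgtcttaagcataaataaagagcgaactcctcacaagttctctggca
Gbp5, chr3:142496684-142496933, plus strand: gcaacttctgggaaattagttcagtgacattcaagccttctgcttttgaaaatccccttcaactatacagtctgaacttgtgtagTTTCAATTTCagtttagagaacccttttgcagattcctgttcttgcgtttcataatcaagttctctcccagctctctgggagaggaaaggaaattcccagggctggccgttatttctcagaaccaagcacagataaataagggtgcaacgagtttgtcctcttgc
Gbp7, chr3:142530086-142530335, plus strand: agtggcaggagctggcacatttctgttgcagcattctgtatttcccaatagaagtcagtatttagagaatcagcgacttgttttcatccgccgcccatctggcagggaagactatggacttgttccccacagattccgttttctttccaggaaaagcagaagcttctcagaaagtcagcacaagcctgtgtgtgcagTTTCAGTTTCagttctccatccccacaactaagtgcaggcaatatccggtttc
Irgm1, chr11:48871421-48871670, minus strand: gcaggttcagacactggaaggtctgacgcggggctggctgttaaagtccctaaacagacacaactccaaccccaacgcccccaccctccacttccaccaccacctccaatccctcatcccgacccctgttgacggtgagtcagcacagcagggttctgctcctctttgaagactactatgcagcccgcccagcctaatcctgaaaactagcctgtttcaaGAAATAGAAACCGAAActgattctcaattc
Rel, chr11:23770970-23771219, minus strand: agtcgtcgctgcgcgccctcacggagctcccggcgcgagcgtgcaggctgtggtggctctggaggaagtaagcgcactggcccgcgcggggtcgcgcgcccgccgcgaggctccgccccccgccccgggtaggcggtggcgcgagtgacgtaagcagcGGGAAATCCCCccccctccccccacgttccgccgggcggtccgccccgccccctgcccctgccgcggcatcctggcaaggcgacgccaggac
The ISRE began 59 bases before the start of Gbp2, 165 before that of Gbp5 and 53 before that of Gbp7. In Irgm1 a pair of ISRE matches overlapped, and in Rel a pair of NF-kB matches did. Of 22 interferon gamma response genes tested, 10 were at least 2-fold higher in G1, where 3.61% of all tested genes were. Of these 10, 6 had a promoter window (250 bases before to 50 after a start) in the RefSeq table. An ISRE was in a window of 5 of these 6, against 3.89% of the 9433 tested genes with a window. Of all 15 list members with a window, called or not, 9 held an ISRE. The GAS element (TTCNNNGAA) was in the windows of 3 of the 6 genes and of 8.45% of these tested genes. Of 8 TCR-induced transcription factor genes that were higher in G1 and had a window, 4 held an NF-kB site (6.15% of tested genes). Egr2 alone, 1 of the 8, held a CArG box (1.55% of tested genes). None of the 8 held a CRE (TGACGTCA, in 3.66% of tested genes) or an AP-1 site (TGANTCA, in 5.97%), shares at which 8 genes give few or no matches. A match describes the letters in a window and not a bound site.

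The T cells of G1 gave 48383101 UMIs (median 8812 UMIs and 2971 genes per cell) and those of H2 33656414 (median 8248.5 UMIs and 2874 genes). Cd4 had a UMI in 60.02% of G1 and 70.7% of H2 T cells, and Trdc, the delta chain constant region, in 20.6% and 22.2%. G1 and H2 shared 6 barcode sequences, 3 of them among T cells. Of the other cell types, erythroid genes (6 of 6 detected, led by hemoglobin) summed to 833 CPM (UMIs of a gene per 1000000 UMIs of all T cells of the library) in the T cells of G1 and 55.0 in those of H2. Over the remaining libraries the erythroid sum lay between 61.1 in G2 and 1008 in G3, and its part in the results was not tested. Granulocyte genes summed to 6.45 in G1 and 116 in H2, B cell genes to 10.0 and 14.1, and myeloid genes to 125 and 93.2. The 10 fibroblast genes summed to 5.15 and 4.4 CPM, with Lum at 0 in both and Pdgfra at 0 in H2.

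Across 12495 genes with at least 100 UMIs in both libraries together, 451 (3.61%) were at least 2-fold higher in G1 and 55 (0.44%) at least 2-fold higher in H2. The ratio was taken on CPM with 0.5 added to each count, and its median over all tested genes was 0.00 on the log2 scale. The interval lay wholly past 2-fold for 301 of the genes higher in G1 and for 30 of those higher in H2. Of the 451, 297 (65.9%) were also at least 2-fold higher in G1 than in G2. Between G2 and H2, 212 of the tested genes were at least 2-fold apart, in either direction. Among the 451, 390 had at most 50% of their G1 UMIs in 5 cells. Among the 55 only 14 met the same condition in H2.

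**Figure D1:**
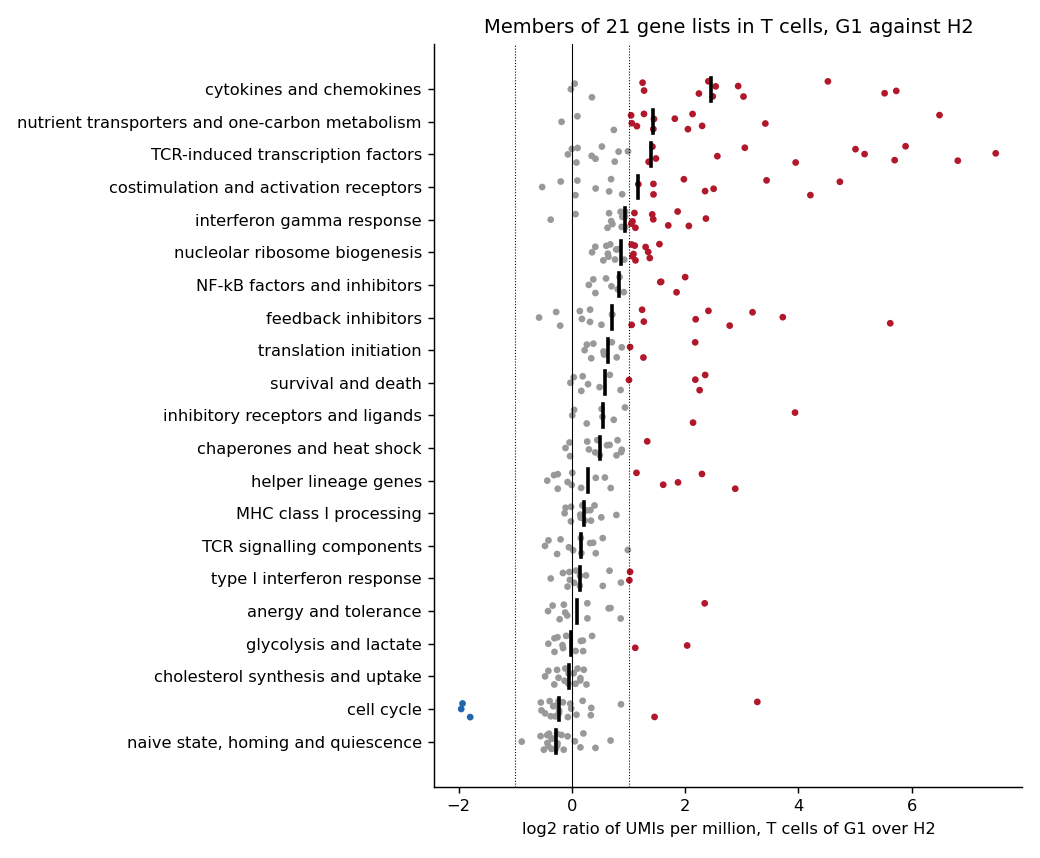
Log2 ratio of CPM (G1 over H2, x axis) of each tested member of 21 gene lists (rows). Points at or past the dotted 2-fold lines are red (higher in G1) or blue (higher in H2), black bars mark list medians, and the cytokine list has the highest median at 2.45.

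The transcription factors that follow TCR signalling were among the genes with the largest differences. Of 22 tested, 12 were at least 2-fold higher in G1, against 3.61% of all tested genes. None was lower, against 0.44% of all, and the median log2 ratio was 1.39. Irf4, needed for the expansion of activated T cells (chr13:30749226-30766976, plus strand), stood at 157 CPM in G1 and 0.86 in H2, with 133 in G3, 2.44 in G2 and 1.77 in H1. G1 and G3 were high and the other 3 libraries low, a split read from these values and not from a label. The log2 ratio of G1 over H2 was 7.48 (95% interval 6.99 to 8.09), or 6.47 over cells with a Cd4 UMI and none of Trdc, Cd8a or Cd8b1, and Irf4 had a UMI in 1052 G1 cells and 27 H2 cells. Nr4a1, the orphan nuclear receptor Nur77 that serves as a reporter of TCR signalling (chr15:101254269-101274795, plus strand), stood at 132 in G1, 117 in G3, 3.54 in G2, 2.15 in H1 and 1.16 in H2. Its log2 ratio was 6.81 (6.38 to 7.33), and its UMIs lay in 851 cells of G1 and 24 of H2. Nr4a3 and Nr4a2, its paralogs, had log2 ratios of 5.70 and 5.17.

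The EGR factors, which the ERK pathway induces, were likewise higher in G1 and G3 than in the other 3 libraries. Egr2 stood at 16.7 CPM in G1, 14.2 in G3, 0.51 in G2, 0.30 in H1 and 0.51 in H2. Egr3 stood at 18.5 in G1, 18.2 in G3, 0.51 in G2, 0.47 in H1 and 0.30 in H2, and over Cd4 cells (a Cd4 UMI and none of Trdc, Cd8a or Cd8b1) it had 333 UMIs in G1 and none in H2. Egr1 stood at 70.1 in G1, 64.8 in G3, 5.50 in G2, 4.11 in H1 and 4.52 in H2. Myc, which drives growth and metabolism of activated T cells, was higher by 2.57 on the log2 scale (40.6 against 6.83) and by 1.82 over Cd4 cells alone. Bhlhe40 was higher by 3.05. Not every immediate early gene passed the 2-fold rule: Jun was at 30.4 and 31.9 CPM (log2 ratio -0.07), Jund at 324 and 307, and Junb at 150 and 104. Fos was at 5.68 and 2.11 (log2 ratio 1.42), and Tbx21, the Th1 factor T-bet, at 9.78 in both libraries.

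**Figure D2:**
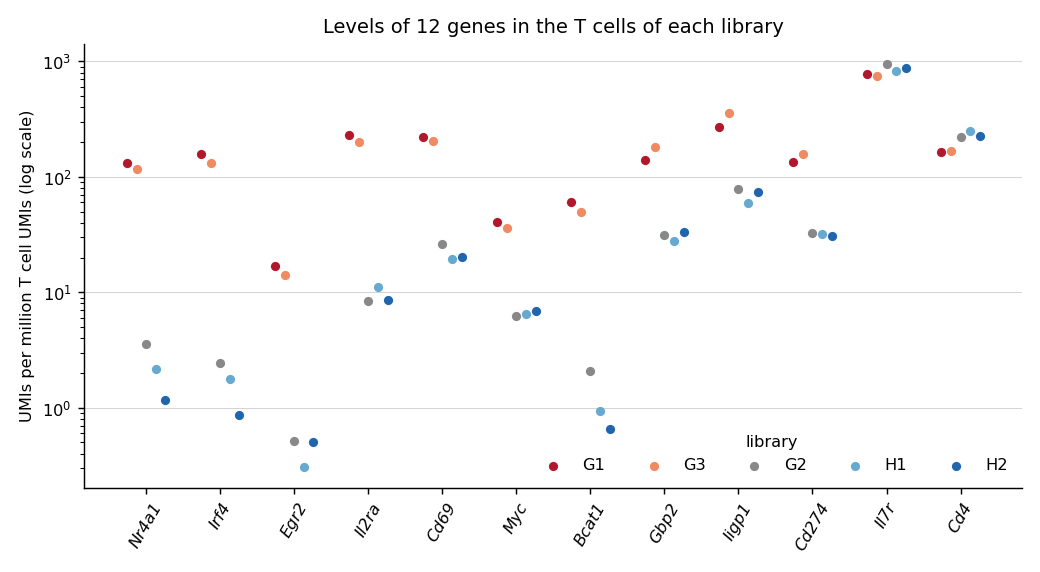
CPM (log scale) of 12 genes in the T cells of 5 libraries. For Nr4a1, Irf4, Egr2, Il2ra, Cd69, Myc, Bcat1, Gbp2, Iigp1 and Cd274 the points of G1 and G3 lie above those of G2, H1 and H2, while those of Il7r and of Cd4 lie within 2-fold of each other.

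Surface receptors of activation followed. Of 17 costimulatory and activation receptors tested, 9 were at least 2-fold higher in G1, against 3.61% of all tested genes. None was lower, against 0.44% of all. Il2ra, the alpha chain of the interleukin 2 receptor (CD25), stood at 229 CPM in G1, 200 in G3, 8.45 in G2, 11.1 in H1 and 8.59 in H2 (log2 ratio of G1 over H2 4.73, 4.57 to 4.91, and 3.97 over Cd4 cells). Cd69, which holds activated cells in the tissue, was at 221 in G1 and 20.4 in H2 (log2 ratio 3.44, 3.33 to 3.55). Tnfrsf9 (4-1BB) had a log2 ratio of 4.21, Slamf1 of 2.35, Tnfrsf4 (OX40) of 1.44 and Cd5, which scales with TCR signal strength, of 1.44. Cd28 was at 411 and 393 CPM, and Cd40lg, the CD40 ligand, was at 101 in G1 and 145 in H2. Of 9 inhibitory receptors and ligands, the 2 ligands of PD-1 passed the 2-fold rule: Pdcd1lg2 (log2 ratio 3.94, and 2.97 over Cd4 cells) and Cd274 (2.14). Pdcd1 itself had a log2 ratio of 0.53, Ctla4 of 0.54 and Lag3 of 0.94.

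Feedback inhibitors of the same pathways were also higher, 9 of 19 tested against 3.61% of all tested genes, with none lower. Spry1, a brake on ERK signalling, stood at 31.4 CPM in G1, 25.3 in G3, 1.14 in G2, 1.41 in H1 and 0.62 in H2 (log2 ratio 5.62, and 4.20 over Cd4 cells). The ERK phosphatases Dusp6, Dusp4, Dusp5 and Dusp2 had log2 ratios of 3.19, 2.41, 2.19 and 1.24. Cish, a STAT5 target that dampens cytokine signalling, had 2.79, whereas Socs3 was lower in G1 by less than 2-fold (-0.58). Of 12 NF-kB factors and inhibitors, Nfkbid (2.0), Nfkb1 (1.85), Nfkb2 (1.58) and Relb (1.56) passed the rule. Nfkb1 was at 768 CPM in G1 and 213 in H2.

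Cytokine and chemokine genes had the highest list median, 2.45, with 11 of 14 tested at least 2-fold higher, against 3.61% of all tested genes. Tnf was at 22.2 CPM in G1, 22.6 in G3, 2.59 in G2, 3.70 in H1 and 2.70 in H2. Its UMIs were spread over 401 G1 cells, and its log2 ratio of 3.03 was 2.27 over Cd4 cells. Lta (log2 ratio 2.94), Tnfsf11 (RANKL, 2.24) and Tnfsf8 (CD30 ligand, 1.25) belong to the same family. Il2 was at 7.17 and 1.34 CPM, in 56 G1 cells with 61.1% of the UMIs in 5 of them, and its log2 ratio of 2.41 came to 0.95 over cells with at least 4 T markers and to 0.73 over Cd4 cells. The chemokines Ccl22, Ccl17 and Cxcl9 rested on few barcodes (17, 8 and 8), with 97.7%, 98.3% and 98.7% of their G1 UMIs in 5 cells. Without cells that hold markers of another cell type, the log2 ratio of Ccl17 was 0.75 and that of Cxcl9 was 0.01. That of Ccl22 was 4.73, down from 9.49. Ccl4 lay in 96 G1 cells, at 32.1 CPM against 0.68. Ifng, the gene of interferon gamma, was under the count minimum, with 55 UMIs in G1 and 25 in H2 (1.14 and 0.74 CPM), and 54.5% of the G1 UMIs lay in 5 cells.

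Metabolic lists separated. Among 15 genes of nutrient transport and one-carbon metabolism, 12 were at least 2-fold higher in G1, against 3.61% of all tested genes. The list sum was 1099 CPM in G1, 991 in G3, 451 in G2, 447 in H1 and 408 in H2. Bcat1, the cytosolic branched-chain aminotransferase, was at 60.1 in G1 and 0.65 in H2 (log2 ratio 6.49). Psat1 of serine synthesis (3.42), the amino acid transporters Slc7a5 (2.30) and Slc7a1 (2.05), and the mitochondrial one-carbon enzymes Shmt2 (2.13) and Mthfd2 (1.82) followed. The glucose transporters Slc2a1 (0.10) and Slc2a3 (-0.18) stayed under the rule. Of 14 glycolysis and lactate genes only Hk2 (2.04) and Slc16a1 (1.12) passed, the median was -0.02, and Gapdh was at 168 and 161 CPM. None of 16 cholesterol genes passed in either direction. At the shares over all tested genes (3.61% higher, 0.44% lower) a list of this size gives few or no calls.

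Ribosome biogenesis was higher, with 9 of 20 nucleolar genes (median 0.87) past 2-fold, against 3.61% of all tested genes. Among the 9 were Utp20 (1.55), Rrs1 (1.38), Gnl3 (1.30) and Nop58 (1.11). Npm1, nucleophosmin, was at 791 and 594 CPM (0.41). Of 12 translation initiation genes 3 passed, namely Eif4ebp1, Eif3c and Eif2s2, and of 15 chaperones 1, Hspa9. At the share of 3.61% a list of 15 genes gives few or no calls. The survival genes Bcl2a1d (2.35), Bcl2l1 (2.26, and 1.23 over Cd4 cells), Bcl2a1b (2.18) and Bcl2 (1.01) were higher, whereas Mcl1 was at 258 and 262. Bcl2a1b and Bcl2a1d are near-identical copies, so the split of reads between them is uncertain. Of 25 cell cycle genes, Cdkn1a, the p21 inhibitor of CDKs (3.27, and 4.98 over cells with at least 4 T markers), and Cdk6 (1.46) were higher in G1. Top2a (-1.95), Mki67 (-1.93) and Cdk1 (-1.80) were higher in H2. Of all tested genes, 3.61% were at least 2-fold higher in G1 and 0.44% in H2. At the first share a list of this size gives few or no calls. Leaving out the 6% of T cells with the most UMIs in each library moved Top2a to 0.12 and Mki67 to -0.06.

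Some of the highest ratios belonged to genes outside these lists. Tnnt2, cardiac troponin T, had 671 UMIs in 232 G1 cells and none in H2, at least 156-fold higher against a floor of 3 counts per library. It was at 13.9 CPM in G1, 11.6 in G3, 2.52 in G2 and 0.03 in H1. Its neighbour on chromosome 1, Lad1 (ladinin), had 1494 UMIs in 326 G1 cells and 1 in H2 (log2 ratio 9.44, 7.54 to 15.33). Lif, a cytokine of the interleukin 6 family, and AA467197 followed with log2 ratios of 4.97 and 5.44. Lif was at 3.24 CPM in G1, 4.32 in G3, 1.49 in G2, 0.25 in H1 and 0.09 in H2 (3 UMIs). AA467197 was at 7.07, 7.54, 0.94, 0.44 and 0.15 (5 UMIs) in the same order. Over G2 the log2 ratios of G1 were 1.105 for Lif and 2.88 for AA467197. The transcript Gm15687 (chr6:145056389-145059892, plus strand) lies within the span of Bcat1 (chr6:144993835-145076184, minus strand), on the opposite strand. Whether reads of Bcat1 enter the count of Gm15687 was not tested. Gm15687 had 105 UMIs in G1 and none in H2, at least 24.3-fold higher against the same floor. Bdh2, a hydroxybutyrate dehydrogenase, had 166 and none, at least 38.5-fold higher. Most genes at the low end were held by few H2 cells: Ms4a3 had 99.3% of its H2 UMIs in 5 cells, F13a1 96.2%, Ube2c 92.6% and Cenpf 83.5%. Iglc1, an immunoglobulin light chain constant gene, differed from them, with 309 UMIs over 191 H2 cells and 15 UMIs over 3 G1 cells.

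Genes that mark the naive state were within 2-fold, 22 of 22, with a median of -0.27. Of all tested genes, 3.61% were at least 2-fold higher in G1 and 0.44% in H2. Ly6c1 had the lowest ratio, at 268 CPM in G1 and 495 in H2 (-0.89). Il7r was at 772 and 877 and Klf2 at 487 and 660, and their other libraries lay between 751 and 947, and 452 and 626. Ccr7 was higher in G1 by less than 2-fold (297 against 185). Of 16 helper lineage genes 5 passed the rule, among them Gpr83, Lrrc32, Foxp3 and Il12rb1. Foxp3, the regulatory T cell factor, was at 11.1 in G1, 8.48 in G3, 5.15 in G2, 9.60 in H1 and 3.62 in H2, so H1 lay close to G1. Among 12 anergy genes 1 passed, Izumo1r (folate receptor 4, 2.35), and none of 13 TCR signalling components did. At the shares over all tested genes, lists of this size give few or no calls. Cd4 was at a log2 ratio of -0.47.

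The interferon gamma response list had 10 of 22 members past 2-fold, against 3.61% of all tested genes. Its median was 0.94 and its sum 3214 CPM in G1 and 1958 in H2. Gbp2 (chr3:142620602-142638008, plus strand) was at 140 CPM in G1, 180.5 in G3, 31.2 in G2, 27.7 in H1 and 33.5 in H2, a log2 ratio of G1 over H2 of 2.07 (1.97 to 2.16). Iigp1 was at 270 in G1, 356 in G3, 78.0 in G2, 59.7 in H1 and 74.1 in H2. In both genes G3 was highest, G1 next, and G2, H1 and H2 low and close together. Gbp5 (2.37), Gbp6 (1.70), Gbp4 (1.42), Gbp3 (1.12), Serpina3g (1.10), Irgm1 (1.07) and Gbp7 (1.05) also passed. Irf1 was at 214 and 115 (0.89). Guanylate binding proteins are a family of similar and partly overlapping genes, so how reads were split between members is uncertain. Of 15 type I interferon response genes Rtp4 (1.03) and Rsad2 (1.01) passed, and Ifit1 was at 6.39 and 5.79. None of 14 MHC class I genes passed (B2m 0.15, H2-K1 -0.02). At the share of 3.61% lists of 14 or 15 genes give few or no calls. Ifngr1, a chain of the interferon gamma receptor, was at 569 and 737.

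UMIs of 8 of the TCR-induced genes were found in a minority of cells. Each T cell was thinned at random to 1500 UMIs, leaving out 71 shallower G1 cells and 76 H2 cells, and 8 genes (Nr4a1, Nr4a2, Nr4a3, Egr1, Egr2, Egr3, Irf4 and Il2ra, the panel) were looked up. At least 1 of them had a UMI in 1035 of 5067 G1 cells (20.4%, exact Clopper-Pearson interval 19.3 to 21.6) and in 82 of 3802 H2 cells (2.16%, 1.72 to 2.67). Without thinning the shares were 37.1% and 8.25%. Of the whole TCR-induced transcription factor list (24 genes), at least 2 had a UMI in 92.7% of G1 and 89.3% of H2 T cells, unthinned. At least 2 of them were found in 628 G1 cells (12.4%, 11.5 to 13.3) and 5 H2 cells (0.13%, 0.04 to 0.31), and 11 G1 cells held 7. In the other libraries the share with at least 1 was 18.5% in G3, 2.29% in G2 and 2.98% in H1. Barcodes of other types were few. Of B cell barcodes, 1 of 4 in G1 held a thinned panel UMI (exact interval 0.63 to 80.6%, median 9096.5 UMIs). In H2 it was 0 of 8 (upper limit 36.9%, median 10046). Without thinning it was 3 of 4 and 5 of 8. Of erythroid barcodes 1 of 6 in G1 and 0 of 6 in H2 held one, and of granulocyte barcodes 0 of 4 and 1 of 3. Whether these panel UMIs were the cells' own transcripts or free RNA was not tested. So few barcodes do not bound the background of free RNA below the share of G1 T cells. The G1 cells with at least 2 panel genes were deeper, with a median of 10998 UMIs before thinning against 8581 for cells with none, and the part of doublets in this was not tested.

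**Figure D3:**
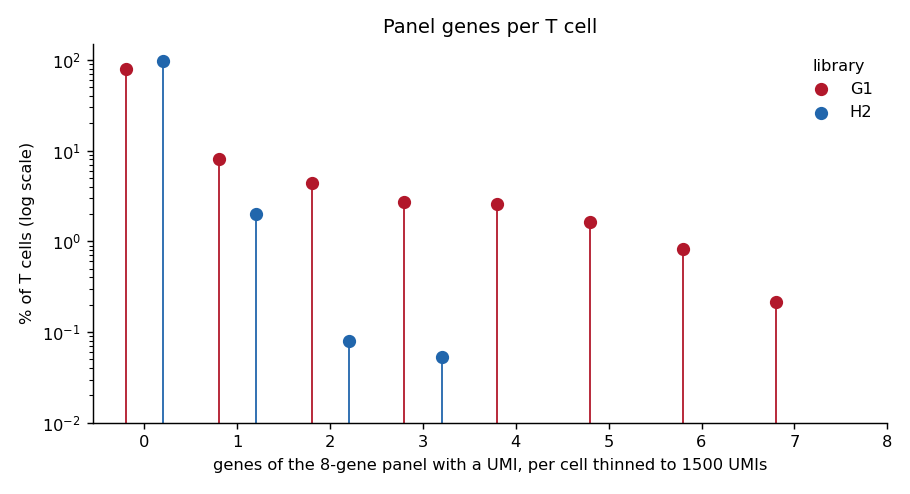
Percent of T cells (log scale) by the number of panel genes with a UMI after each cell was thinned to 1500 UMIs, for G1 and H2. G1 cells reach 7 panel genes, and no H2 cell has more than 3.

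The share was also taken by the receptor segments and lineage transcripts that could be read, each present in only some cells. Among cells with a UMI of Trav14 or Trbv12-1/Trbv12-2, the segments of the OT-II receptor, 21.2% of G1 and 1.35% of H2 cells held a panel UMI. Among cells with other segments only it was 22.4% and 2.16%. Under narrower classes the 2 kinds of cell stood further apart in G1. Cells with both Trav14 and Trbv12-1/Trbv12-2 and no other Trbv had 34.9% (15 of 43 cells, 21.01 to 50.9), and 36.7% in G3 (11 of 30). Cells with Trbv12-1/Trbv12-2 alone had 20.6% (18.1 to 23.3), against 15.5% (12.8 to 18.5) with another Trbv alone. In Cd4 cells the shares were 27.3% with both segments (6 of 22 cells, 10.7 to 50.2) and 9.84% with neither segment and another Trbv (31 of 315, 6.79 to 13.7). The order therefore depended on how the classes were drawn, and these differences were not tested. No segment was read in 43.7% of G1 and 40.7% of H2 cells. Cells with a Cd4 UMI and none of Trdc, Cd8a or Cd8b1 had 14.5% (13.2 to 15.98) in G1 and 2.01% in H2, and cells with Trdc and no Cd4 had 12.2% (9.77 to 15.04) and 2.28%. Trbv12 took 58.4% of all Trbv UMIs in G1 and 55.2% in H2.

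The interferon gamma response was also higher in G1 among cells without a panel UMI. In T cells with no panel UMI at all before thinning (3233 in G1 with a median of 8378 UMIs, 3558 in H2 with 8180.5), the sum of the TCR-induced transcription factor list, whose panel members are 0 there by construction, was 778 CPM in G1 and 760 in H2. The nucleolar sum was 1526 and 1559. The interferon gamma sum was 3738 in G1, 4148.5 in G3, 1924 in G2, 1927 in H1 and 1951 in H2, a log2 ratio of G1 over H2 of 0.94 (0.92 to 0.95). Among these cells, 51 of 11635 tested genes (0.438%) were at least 2-fold higher in G1 and 35 (0.301%) in H2. Of the 51 genes, 39 were among the 451 of all T cells, which is 76.5% of the 51 and 8.65% of the 451. Interferon gamma response genes made up 16 of the 51, out of 21 tested. Leaving out cells with a panel UMI leaves out cells in which TCR genes were read, so low ratios of TCR-induced and growth genes among the remaining cells follow in part from the choice of cells.

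**Figure D4:**
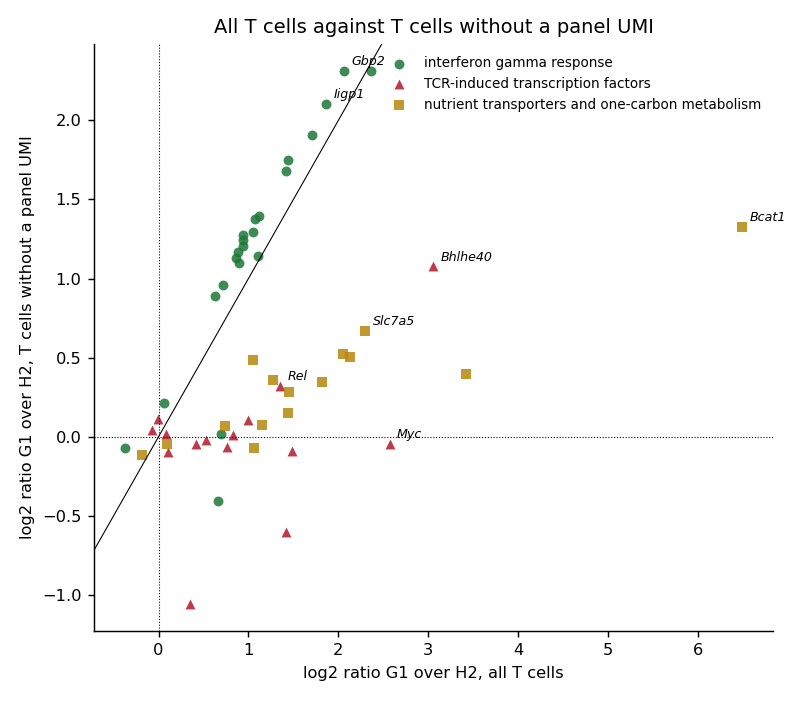
Log2 ratio of G1 over H2 in all T cells (x axis) and in T cells without a panel UMI (y axis) for members of 3 lists, panel genes left out and at least 20 UMIs required, with the line of equality. Gbp2 and Iigp1 lie above the line, and Myc lies near 0 on the y axis.

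Single members of the list gave the values behind this sum. Gbp2 was at 157 CPM in G1, 201 in G3, 30.3 in G2, 25.7 in H1 and 31.6 in H2 (log2 ratio of G1 over H2 2.31). Iigp1 was at 322 in G1 and 74.8 in H2 (2.11), Irf1 at 248 and 116 (1.10), and Cd274 at 98.3 and 29.9 (1.72). Gbp10, outside the list and named after its values were seen, was at 4.05 and 0.20 (4.24), and the interferon-inducible GTPase Gm4951 at 58.4 and 7.76 (2.91). Cxcl10, a chemokine that interferon gamma induces, was at 6.17 and 1.32. Myc was at 6.34 and 6.54, and Il7r at 995 and 871. Tnfrsf9 (8.96 and 1.72) and Cd69 (29.3 and 17.4) remained higher in G1, the second by less than 2-fold. Per thinned cell without a panel gene, the 22 interferon gamma genes gave a median of 4 UMIs in G1 (quartiles 2 and 8) and 2 in H2 (quartiles 1 and 4). More than 8 UMIs, the 95th percentile of H2, were found in 872 of 4032 G1 cells (21.6%, 20.4 to 22.9) and in 3.58% of H2 cells, with 25.3% in G3, 3.45% in G2 and 2.54% in H1. The quartiles of G1 lay above those of H2, and the distributions overlapped.

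Within G1, cells with at least 2 panel genes after thinning (628) and cells with none after thinning (4032) differed in other genes than the panel. Of the 4032 cells, 3183 had no panel UMI before thinning either. These classes were cut by measured values, so the differences are a description. The interferon gamma sum was 1228 CPM in the cells with at least 2 panel genes and 3642 in those with none (log2 ratio -1.57), and in G3 it was 1433 and 4074 (-1.51). Gbp2 was at 40.4 and 155 in G1 and Irgm1 at 23.8 and 140. Ifngr1 was at 80.8 and 686 in G1 and 126 and 716 in G3. Not all members were lower in the cells with panel genes: Jak2, the kinase of the receptor, was at 443 and 114, and Cd274 of another list at 298 and 102. Ifng was at 3.38 and 0.68, but it was under the count minimum and most of its G1 UMIs lay in few cells.

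The naive-state genes, which were within 2-fold over all cells, differed widely between these classes. Il7r, the interleukin 7 receptor alpha chain, was at 71.3 CPM in the cells with at least 2 panel genes and 950 in those with none (119 and 895 in G3). S1pr1, the receptor for exit from lymph nodes, was at 62.4 and 537, and Klf2, a factor that maintains its expression, at 76.9 and 591. Tcf7 was at 261 and 1043 and Ly6c1 at 39.4 and 327. Ccr7 (408 and 249) and Bach2 (4049 and 2689) were higher in the cells with panel genes. Cd4 was lower there, at 58.6 and 189 CPM (61.4 and 192 in G3), and Cd5 higher, at 552 and 91.9.

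**Figure D5:**
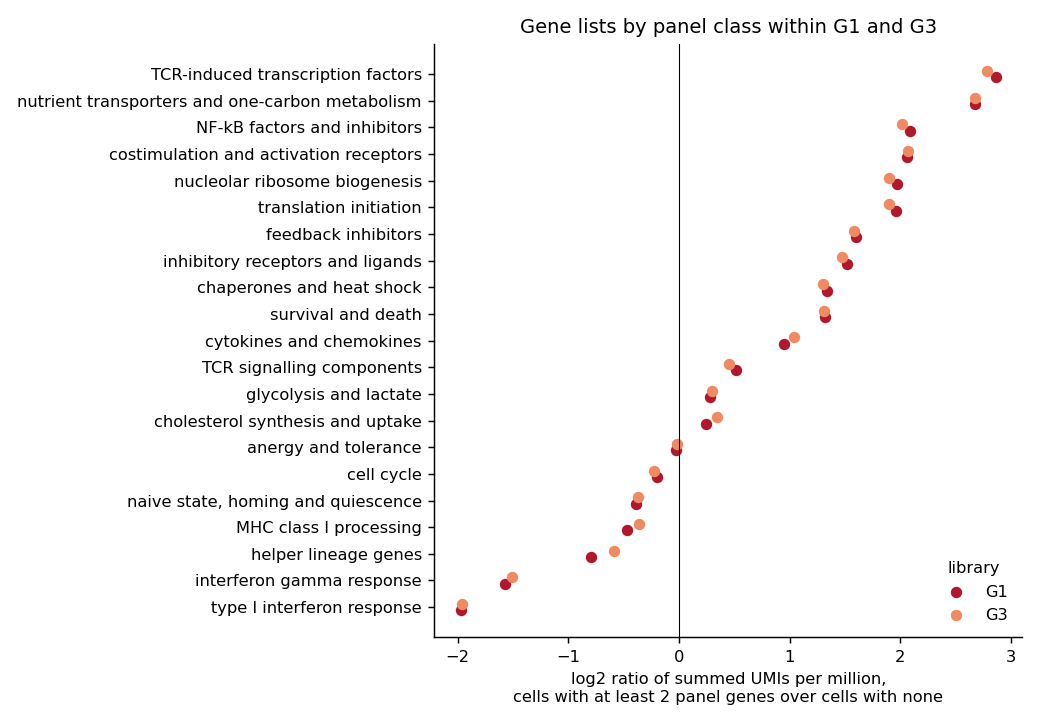
Log2 ratio of each list's summed CPM in cells with at least 2 panel genes over cells with none (thinned classes), within G1 and within G3. The transcription factor and receptor lists hold the panel genes themselves, and both interferon lists lie below -1.4 in both libraries.

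Growth lists were concentrated in the cells with panel genes. The nutrient list summed to 3509 and 550 CPM in G1 and to 3305 and 516 in G3. Slc7a5 was at 195 and 20.3, Tfrc, the transferrin receptor, at 143 and 16.4, and Psat1 at 163 and 9.0. The nucleolar sum was 6379 and 1631, the translation initiation sum 4754 and 1222, and Nfkb1 was at 2802 and 330.1. Bcl2l1, the survival gene of BCL-xL, was at 376 and 23.6 and Cdkn1a at 115 and 2.95. The glycolysis sum was 1213 and 997, the cholesterol sum 375 and 317, and the anergy sum 3848 and 3923.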

How the data were processed

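The authors deposited UMI counts per gene and barcode in 2 matrices, which hold 5 barcode suffixes; Cell Ranger 6.0.0 and mm10 are named per the submitters' processing notes, whereas the matrix headers name version 7.1.0. Whether intronic reads were counted and whether depth was equalised between libraries is stated by no label or header used here, and both can move levels of unspliced and weakly covered genes. Libraries were kept apart by suffix and never tied to a sample, so no values were averaged and no test was made. Counts were summed over T cells, scaled to CPM (per 1000000 UMIs) and compared as a log2 ratio with 0.5 added; intervals are exact binomial (ratios) or Clopper-Pearson (shares) at 95%, with numpy 2.4.6 and scipy 1.17.1, and cover counting error only. A gene was tested from 100 UMIs in both libraries together and called at 2-fold.

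Named genes are the 20 highest and 10 lowest ratios past 2-fold that are no receptor segment and no marker of another cell type, and up to 6 members of each of 21 lists, with members under the rule as examples. The members and lists were chosen with earlier results of these data known. Thinning used a fixed seed, and no doublets were called or removed. Of 32285 gene identifiers, 32235 matched GENCODE M21 (GRCm38). The code was tested on simulated counts. Motifs were searched on both strands. Some members of the lists count in the sums and are not reported here by name. Alternatives covered scaling, cell filters, thinning and the count minimum; leaving out cells with markers of other types, and genes concentrated in 5 cells, were added after seeing the data.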

Additional observations from a re-analysis of the deposited data

How the results depend on the processing

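The count of genes at least 2-fold higher in G1 (451) was 190 over thinned cells, 238 over Cd4 cells without Trdc or Cd8, 813 at a minimum of 20 UMIs and 256 at a minimum of 500. Under these settings fewer or more genes or cells were tested. The count higher in H2 (55) was 35 by the mean over cells, 7 over thinned cells, 12 over Cd4 cells, 10 without the 6% deepest cells, 289 and 9 at the minimums of 20 and 500, 25 without cells holding markers of another type and 14 without genes that have over 50% of their UMIs in 5 cells. The counts of TCR-induced transcription factors and of interferon gamma response genes stayed within 1.5-fold of 12 and 10 under every alternative run. The share of G1 cells with a panel UMI (20.4%) was 15.3% over Cd4 cells in a further random thinning (14.5% in the first), 18.8% without the deepest cells, 25.8% thinned to 3000 UMIs and 37.1% unthinned. F13a1 turned to 0.20 over Cd4 cells, 0.19 without the deepest cells and 0.63 without cells holding other markers, and without the deepest cells Ube2c turned to 0.14 and Top2a to 0.12. The cause was not tested. A reversal was counted only for results past 2-fold in the main setting. These were 52 of 60 named genes and 3 of 21 list sums. Among the 52 genes no other reversed under 10 settings, and they lost the 2-fold call in 22 comparisons. Of the 600 comparisons of all 60 genes, 112 moved the ratio by over 1.5-fold. None of the 3 list sums past 2-fold reversed, and 5 calls of these sums were lost, 3 of them over Cd4 cells. The signs of the other sums were not followed. In 210 comparisons of the 21 sums, 0 moved by 1.5-fold or more. With 1 library a side no replicate could be left out. No paired analysis was possible because each condition has 1 library and no suffix is tied to a sample.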

Other observations

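The classes here were again cut after thinning. In the T cells of G1 that held at least 2 panel genes, the summed type I interferon list stood at 78.6 CPM, against 308 in G1 cells without a panel gene. Isg15 was an exception, at 13.6 and 9.93. Oasl2 was at 2.30 CPM in the cells with panel genes and at 37.3 in the cells without (3.68 and 40.3 in G3), Rtp4 at 2.70 and 24.9, and Ifit2 at 13.4 and 79.7. Stat4, a signal transducer of interleukin 12, was at 138 and 509, and Cdkn1b, the p27 inhibitor of CDKs, at 44.3 and 222. Slamf1 was at 484 and 23.5. Dgka, a diacylglycerol kinase that limits TCR signalling, was at 125 and 785. The classes were cut by measured values, so these are descriptions, and no explanation of them was tested.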
